A study of Mus musculus with 4 samples.

Results

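Chemokines are small secreted proteins that guide moving leukocytes, and they act through G protein-coupled receptors on the cells that respond. The genes described here are the chemokines and chemokine receptors of the mouse whose symbols start with Ccl, Cxcl, Xcl, Ccr, Cxcr or Xcr and a number. The rule found 49 of the 19421 genes measured, 32 ligands and 17 receptors, and used no expression value. Relatives with other names, such as Cx3cl1 and its receptor Cx3cr1, are given separately. The largest differences between genotypes were those of Ccl12 and Cxcl13, 2 ligands with higher signal in the knockout, and neither passed the test over all genes.

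Chemokines are named for the spacing of their first cysteines (CC, CXC or a lone C), and receptors for the class they bind. Many ligands are nearly silent in resting tissue and are switched on by inflammatory signals through NF-κB, interferon factors and STAT proteins, while a few, such as Cxcl12, are made constantly. In retina, microglia carry Cx3cr1 and neurons make its ligand Cx3cl1, and CCL2 and its relatives are best known for drawing monocytes through the receptor CCR2 into injured or degenerating tissue.

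Whole retinas of adult mice were compared after loss of Nrl, the transcription factor that sets and maintains rod identity. Knockout mice carried Nrl flox/flox, or Nrl(f/f), and control mice Nrl flox/+, or Nrl(+/f), so the controls kept an intact allele, and both genotypes carried CAG-CreERTM, also given as Cag-CreERT(+), a tamoxifen-dependent Cre under a broadly active promoter. All animals, controls included, received 4-hydroxytamoxifen by intraperitoneal injection each day from postnatal day 42 to 44, and retinas were taken on postnatal day 63, which is 19 days after the last dose. There were 2 arrays per genotype, each holding RNA pooled from 4 retinas of 2 animals. The recombination is not limited to rods by this Cre, and the comparison asks which genes differ when Nrl is lost from a mature retina.

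On the arrays, the log2 signal of Nrl was 7.57 and 7.05 in the knockout pools against 8.21 and 8.13 in the controls, lower in both knockout pools but not called (difference −0.86, SE 0.18, limma adjusted p = 0.289). Where its probes lie relative to the deleted part was not used here. Of 5 rod markers 1 was called by limma (beside 0.201% of all genes), Gnat1 (difference −3.01, SE 0.13, adjusted p = 0.00586), and all 5 lay below 0. Of 5 cone markers 1 was called, Gnat2 (difference 1.10, SE 0.12, limma adjusted p = 0.0402), with 2 above 0 and 3 below. Signals are given throughout as knockout replicates 1 and 2 against control replicates 1 and 2. All 5 rod, 5 cone and 5 Müller glia markers and all 4 measured bipolar markers lay above the background level used here, a log2 signal of 5.54. That level is the 95th percentile of the mean signals of 1210 olfactory, vomeronasal and taste receptor genes, which are not known for expression in neural retina. Replicate 1 pools had little Xist signal (4.07 and 4.09) and replicate 2 pools much (10.66 and 10.47), so the replicates of each genotype differ in sex.

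Most of the genes were dim. Only 19 of the 49 (38.8%) had a mean signal above the background level, against 64.3% of all genes. The remaining 30, with a mean signal at or below that level, are called dim here. That mean covers both genotypes, and among the dim genes Ccl12 and Cxcl10 had both knockout pools above the level. Among ligands 14 of 32 lay above it, and among receptors 5 of 17. Probes differ in how strongly they bind, so a signal ranks a gene against its own other arrays and not against other genes. The background level is taken from other genes' probes, so the same limit holds for it. A dim call is therefore approximate and does not show that a gene is silent. The genes nearest the level were Ccl26 and Ccl9, both with means of 5.56 just above it, and Cxcl10 (5.51) and Ccl12 (5.49) just below. In whole tissue, fewer cells of a type and less RNA per cell cannot be told apart.

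**Figure D1:**
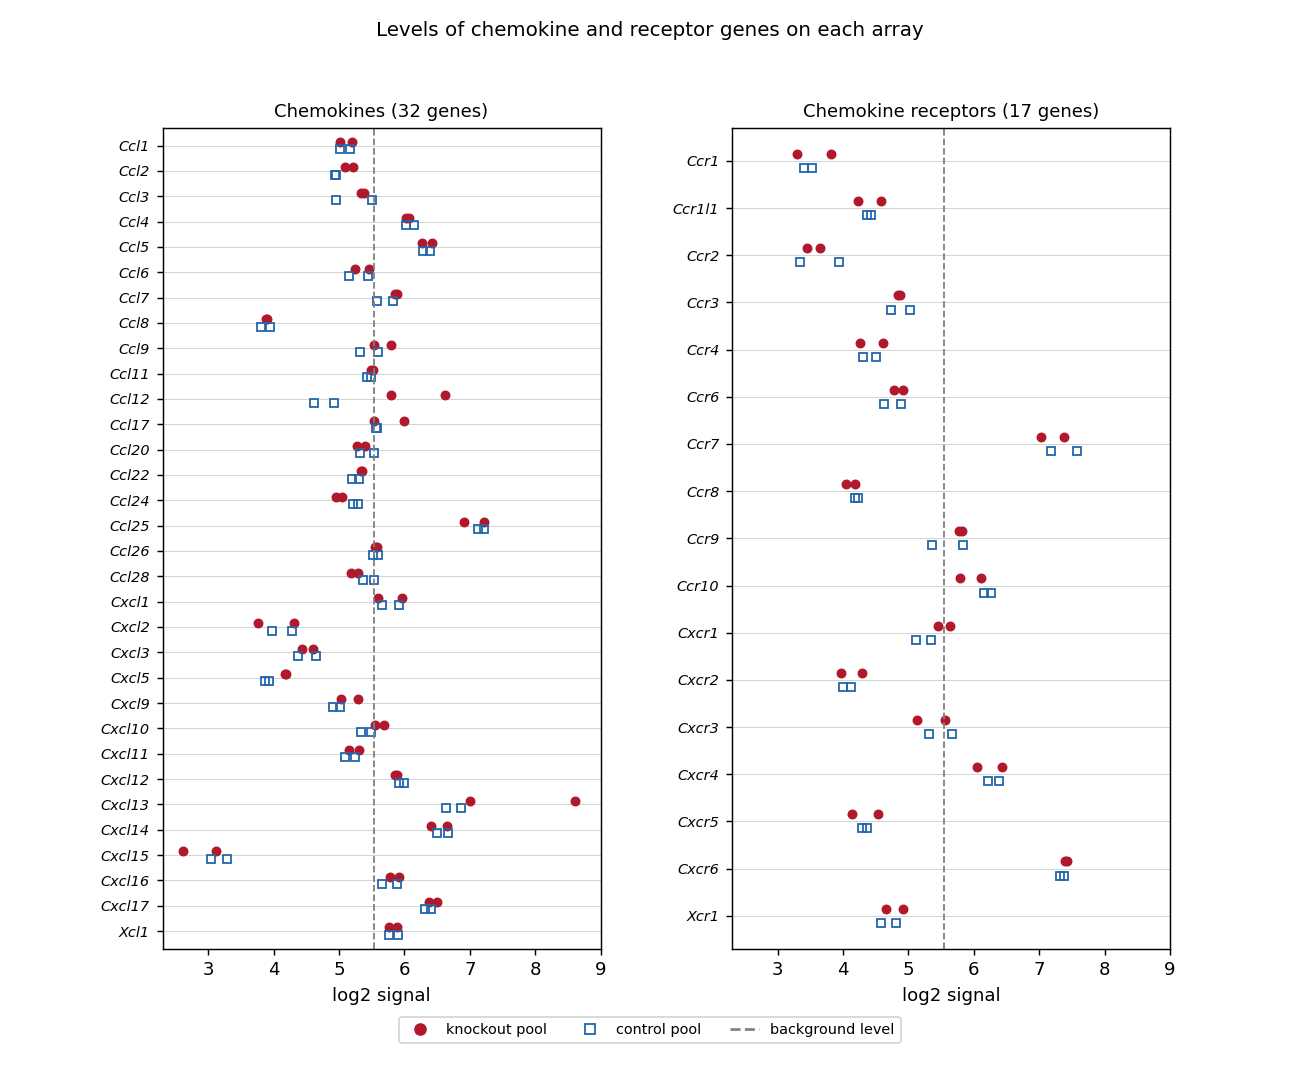
Log2 signal (horizontal axis) of the 32 ligand genes (left) and 17 receptor genes (right) in each of the 4 pools, with knockout pools as filled red circles and control pools as open blue squares; the dashed line is the background level of 5.54. In nearly every gene the 4 points lie close together, and Ccl12 and Cxcl13 show the widest gaps between knockout and control.

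None of the 49 genes was called, at a limma adjusted p under 0.05 after Benjamini-Hochberg adjustment over all genes, where 39 of the 19421 genes (0.201%) were. The smallest adjusted p was 0.241, for Ccl12. At an unadjusted p under 0.05 there were 4, a share of 8.16% beside 7.07% of all genes, so this count lies near the background. The knockout was higher in 3 of them (Ccl12, Cxcl5 and Cxcr1, beside 3.71% of all genes) and lower in 1 (Ccl24, beside 3.37%), and all 4 were dim. The median log2 difference, knockout minus control, was 0.02 over the 49 genes, 0.03 over the ligands, 0.005 over the receptors and −0.003 over all genes. Of the 49, 30 lay above 0 (61.2%, beside 49.0% of all genes). Among those above background 9 of 19 did (47.4%, beside 48.3% of all genes above background). Among the dim genes 21 of 30 did (beside 50.3% of all dim genes), so the higher share lay in the dim genes.

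Both knockout pools lay above both control pools in 10 of the 49 genes (20.4%, beside 17.0% of all genes), 8 ligands and 2 receptors. They lay below both in 5 (10.2%, beside 18.4%), 3 ligands and 2 receptors. A difference of at least 2-fold was found in 2 genes, Ccl12 and Cxcl13, beside 0.314% of all genes, and 46 of the 49 differed by no more than 0.3 on the log2 scale. The 95% interval of the difference lay within 2-fold either way in 47 genes (95.9%, beside 98.8% of all genes), and the exceptions were Ccl12 and Cxcl13. For dim genes that interval describes a signal that may be mostly background.

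**Figure D2:**
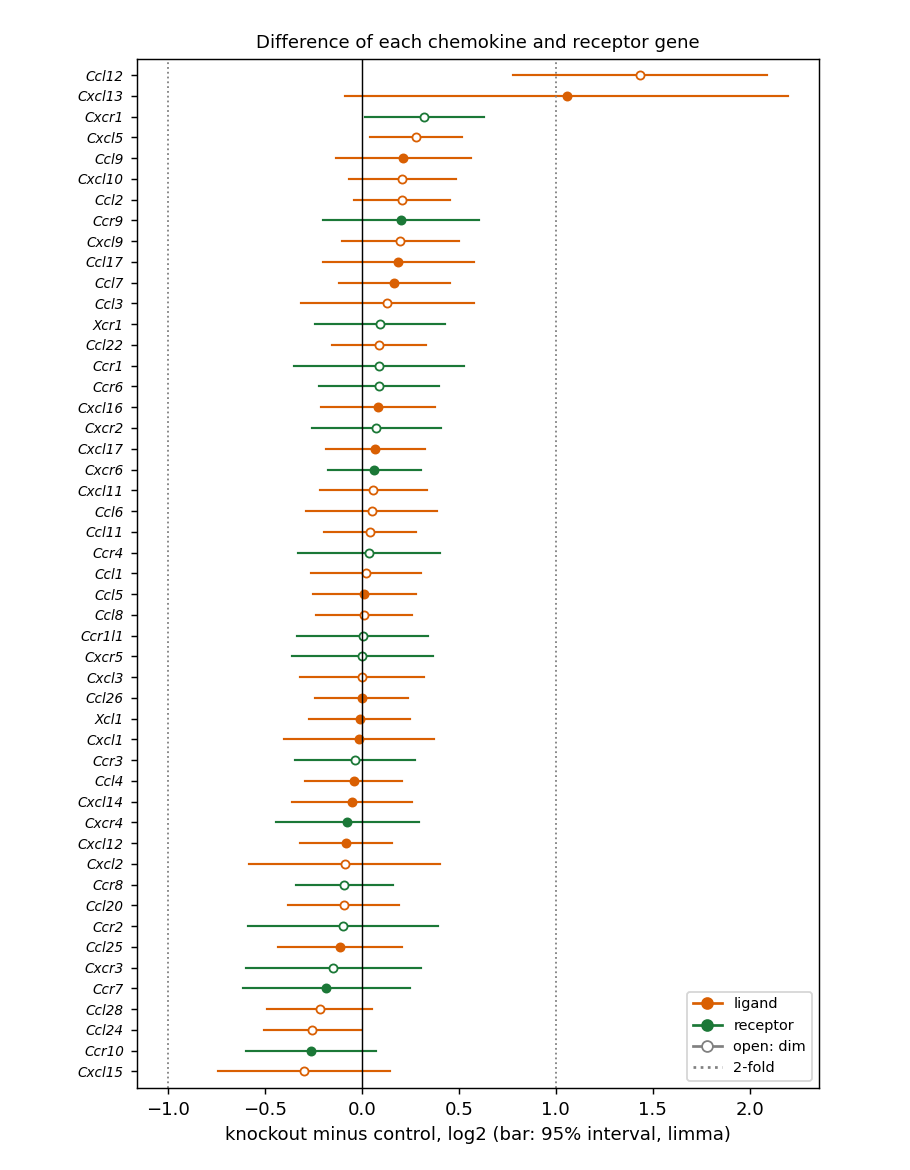
Knockout minus control on the log2 scale (horizontal axis) for each of the 49 genes, ordered by size, with 95% intervals from limma as bars, ligands in orange, receptors in green and open circles for dim genes; dotted lines mark 2-fold. Ccl12 (1.43) and Cxcl13 (1.06) stand at the top, and the intervals of the other 47 genes lie between the dotted lines.

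The stretches before the start sites of Ccl12 and Cxcl13, the genes with the largest differences, are shown with that of Cxcl10, a textbook inducible chemokine, so that the letters behind the motif counts can be read. Each is the 250 bases before the start in RefSeq's GRCm38.p6 annotation, read in the direction of the gene. Capitals mark the motifs searched on both strands, which are GGG and CC with any 5 bases between them (a loose form of the NF-κB site), TTCNNNGAA (a form of the STAT site), GAAA and GAAA with any 2 bases between them (a form of the interferon-stimulated element) and TATAAA (the TATA box). Ccl12 lies on the plus strand (chr11:82101595-82101844), Cxcl13 on the plus strand (chr5:95956689-95956938) and Cxcl10 on the minus strand (chr5:92348890-92349139).
Ccl12: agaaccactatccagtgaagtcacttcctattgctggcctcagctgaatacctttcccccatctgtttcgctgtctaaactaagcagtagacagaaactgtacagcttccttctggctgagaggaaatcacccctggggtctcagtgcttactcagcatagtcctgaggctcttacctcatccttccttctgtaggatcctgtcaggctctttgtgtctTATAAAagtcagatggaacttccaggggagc
Cxcl13: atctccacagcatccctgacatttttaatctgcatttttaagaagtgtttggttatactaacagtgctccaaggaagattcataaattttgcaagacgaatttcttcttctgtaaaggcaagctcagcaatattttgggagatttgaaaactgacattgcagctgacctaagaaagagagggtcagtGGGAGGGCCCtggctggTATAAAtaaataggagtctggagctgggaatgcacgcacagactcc
Cxcl10: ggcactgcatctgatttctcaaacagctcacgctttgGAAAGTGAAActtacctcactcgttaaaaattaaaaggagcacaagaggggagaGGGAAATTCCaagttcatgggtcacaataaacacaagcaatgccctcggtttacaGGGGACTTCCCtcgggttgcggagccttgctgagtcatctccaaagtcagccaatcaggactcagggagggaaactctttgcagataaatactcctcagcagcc

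Ccl12 held TATAAA, starting 31 bases before the start site, and none of the other 3 motifs. Cxcl13 held TATAAA at 46 bases and GGGAGGGCCC, which matches the loose NF-κB form on both strands, at 63. Cxcl10 held GAAAGTGAAA at 213 bases, GGGAAATTCC at 159 and the overlapping matches GGGGACTTCC and GGGACTTCCC at 104 and 103. Windows of 300 bases, from 250 before to 50 after a start, were found for 35 of the 49 genes, 37 windows in all. The loose NF-κB form was in 21 of these 37 (56.8%) and in 50.8% of the table's 32851 windows. The STAT form was in 4 (10.8%, against 8.30%), those of Ccl17, Ccr1l1, Ccr6 and Cxcl14. The interferon form was in 2 (5.41%, against 3.44%), those of Cxcl10 and Cxcl14, and TATAAA was in 11 (29.7%, against 13.6%). These are matches of letters, and binding of factors was not measured.

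Among CC ligands of the receptor CCR2, Ccl12 showed the largest difference. Ccl12 encodes the monocyte attractant MCP-5, and its log2 signal was 6.62 and 5.79 in the knockout pools against 4.92 and 4.62 in the controls. Both knockout pools stood above both controls and above the background level, while both controls stood below it. The means were 6.20 ± 0.59 (SD, n = 2) in the knockout and 4.77 ± 0.21 (SD, n = 2) in the control. They differed by 1.43 (SE 0.27, 95% interval 0.78 to 2.09, unadjusted p = 0.00164 by limma, limma adjusted p = 0.241) or 2.70-fold. Set against the background level in place of the control signal, the knockout mean was 1.58-fold higher, a value that rests on the chosen level and on 2 pools. The difference was 1.70 between the replicate 1 pools and 1.16 between the replicate 2 pools.

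Ccl12 lies in a row of 6 CC ligand genes on chromosome 11, in the order Ccl2, Ccl7, Ccl11, Ccl12, Ccl8 and Ccl1. Ccl2, which encodes MCP-1, the best known CCR2 ligand, had 5.09 and 5.21 in the knockout pools against 4.93 and 4.95 in the controls. It was dim on every array, and the knockout pools stood slightly above the controls (difference 0.21, SE 0.10, adjusted p = 0.765). Ccl7, which encodes MCP-3, had 5.85 and 5.89 against 5.82 and 5.58, with the same order of pools (difference 0.17, SE 0.12, adjusted p = 0.857). Ccl11, which encodes eotaxin, had 5.49 and 5.51 against 5.42 and 5.49, and Ccl8 had 3.89 and 3.89 against 3.81 and 3.94. The pools of both overlapped, with differences of 0.04 and 0.01. The 6 differences lay above 0, from 0.01 to 1.43. How far probes of these related genes also bind each other's transcripts was not tested. Ccr2, the receptor for Ccl12 and Ccl2, was dim at 3.65 and 3.45 against 3.35 and 3.94, with overlapping pools and a difference of −0.10 (95% interval −0.59 to 0.40, adjusted p = 0.976).

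**Figure D3:**
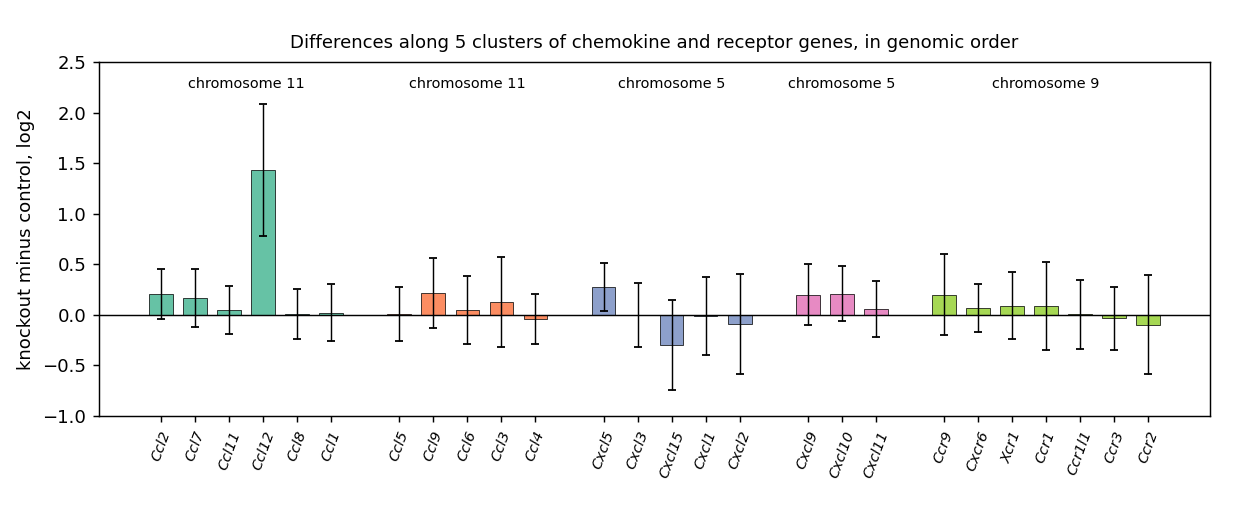
Knockout minus control on the log2 scale (vertical axis, bars, with 95% intervals from limma) for members in 5 genomic groups of chemokine and receptor genes on chromosomes 11, 5 and 9, drawn in genomic order with no distances. Ccl12 stands apart from its neighbours Ccl11 (0.04) and Ccl8 (0.01), and the bars of the other 4 groups stay between −0.30 and 0.28.

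Cxcl13, which encodes the B cell attractant BLC, had a log2 signal of 7.01 and 8.60 in the knockout pools against 6.87 and 6.63 in the controls, above background on every array. Knockout replicate 2 stood far above the other 3 pools, and knockout replicate 1 just above both controls. The means were 7.81 ± 1.13 (SD, n = 2) in the knockout and 6.75 ± 0.17 (SD, n = 2) in the control, a difference of 1.06 (SE 0.47, 95% interval −0.09 to 2.20, limma adjusted p = 0.739). The difference was 0.14 between the replicate 1 pools and 1.97 between the replicate 2 pools. Without knockout replicate 2 it was 0.26 and without knockout replicate 1 it was 1.85, so its size rests on 1 pool of 2 animals. Each of these fits sets a knockout pool of 1 sex against controls of both sexes. The replicate number follows the pools' sex, so sex and replicate cannot be told apart here. Cxcr5, the receptor for Cxcl13 on B cells, was dim at 4.54 and 4.14 against 4.30 and 4.37, with overlapping pools (difference 0.00, 95% interval −0.36 to 0.37).

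Cxcl10, an interferon-induced attractant of T cells, was the only other of the 49 genes with both pools of 1 genotype above the background level and both of the other at or below it, an outcome seen in 0.963% of all genes. Its log2 signal was 5.69 and 5.55 in the knockout pools against 5.49 and 5.33 in the controls, close to the level on either side, with a difference of 0.21 (SE 0.11, adjusted p = 0.792). Cxcl9 and Cxcl11, which act on the same receptor CXCR3 and lie beside Cxcl10 on chromosome 5, were dim. Cxcl9 had 5.03 and 5.29 against 5.01 and 4.90, with the knockout pools higher by little (difference 0.20, SE 0.12, adjusted p = 0.831). The 3 differences lay above 0, from 0.06 to 0.21.

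The ligands of CCR1 and its relatives varied little. Ccl5, which encodes RANTES, had 6.27 and 6.42 against 6.28 and 6.39, and the pools overlapped (difference 0.01, SE 0.11, adjusted p = 0.994). Ccl4, which encodes MIP-1β, had 6.03 and 6.07 against 6.03 and 6.15 (difference −0.04, SE 0.10, adjusted p = 0.978). Ccl9, a macrophage chemokine, had 5.54 and 5.80 against 5.32 and 5.59, with replicate 2 higher in both genotypes (difference 0.22, SE 0.14, adjusted p = 0.847). The pools of these 3 genes overlapped. Ccl3 and Ccl4 overlap each other in the annotation.

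Eotaxins signal to eosinophils through CCR3 and include Ccl11, Ccl24 and Ccl26. Ccl24 had 4.95 and 5.05 in the knockout pools against 5.21 and 5.30 in the controls, dim and lower in both knockout pools (difference −0.25, SE 0.10, unadjusted p = 0.0471 by limma, adjusted p = 0.699). Ccl26 had 5.57 and 5.54 against 5.52 and 5.60, with overlapping pools and a difference of 0.00 (95% interval −0.24 to 0.24).

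Ccl25, the gut and thymus ligand of CCR9, was measured by 2 probe sets. The brighter one stands for the gene and had 7.22 and 6.91 against 7.13 and 7.22, with overlapping pools (difference −0.11, SE 0.13, adjusted p = 0.939). The other had 6.66 and 6.74 against 6.48 and 6.38, a difference of 0.27, so the probe sets pointed in opposite directions. Ccr9 had 5.77 and 5.82 against 5.83 and 5.36, where control replicate 2 alone stood low (difference 0.20, SE 0.16, adjusted p = 0.893). Ccl17, a ligand of CCR4 on T cells, had 5.54 and 5.99 against 5.57 and 5.58, where knockout replicate 2 alone stood high (difference 0.19, SE 0.16, adjusted p = 0.899). Ccl22, the other CCR4 ligand, was dim at 5.33 and 5.35 against 5.30 and 5.20 (difference 0.09, SE 0.10, adjusted p = 0.930).

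Ccr10, a receptor of skin and mucosal lymphocytes, had 6.11 and 5.78 in the knockout pools against 6.15 and 6.26 in the controls. Both knockout pools lay below both controls (difference −0.26, SE 0.14, adjusted p = 0.791), with differences of −0.04 between the replicate 1 pools and −0.48 between the replicate 2 pools. Its ligand Ccl28 was dim and had 5.18 and 5.30 against 5.54 and 5.37, also lower in both knockout pools (difference −0.22, SE 0.11, adjusted p = 0.783). Ccr10 overlaps Cntnap1 in the annotation, and Cntnap1 differed by −0.07. Ccr7, which leads dendritic cells and T cells to lymph nodes, had 7.37 and 7.03 against 7.19 and 7.59, with overlapping pools (difference −0.18, SE 0.18, adjusted p = 0.911). Ccr8, a receptor of T cell subsets, was dim at 4.18 and 4.05 against 4.18 and 4.23, with the knockout pools lower by little (difference −0.09, SE 0.10, adjusted p = 0.933).

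The CXC ligands that draw neutrophils through CXCR2 include Cxcl1, which encodes KC and had 5.59 and 5.96 in the knockout pools against 5.66 and 5.92 in the controls. Replicate 2 was the higher pool in both genotypes, and the genotypes overlapped (difference −0.01, SE 0.16, adjusted p = 0.996). Cxcl5, which encodes LIX, had 4.19 and 4.17 against 3.87 and 3.93. Its pools lay close together within a genotype and did not overlap, all of them below background (difference 0.28, SE 0.10, unadjusted p = 0.0273 by limma, adjusted p = 0.636). Cxcl15, known as lungkine, had 3.11 and 2.62 against 3.04 and 3.28, with knockout replicate 2 alone standing low (difference −0.30, SE 0.18, adjusted p = 0.831). Cxcr1, a neutrophil receptor, had 5.64 and 5.45 against 5.11 and 5.34, where only knockout replicate 1 lay above background and the pools did not overlap (difference 0.32, SE 0.13, unadjusted p = 0.0423 by limma, adjusted p = 0.679).

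Cxcl12, which guides neurons, vessels and stem cells through CXCR4, had 5.86 and 5.88 in the knockout pools against 5.99 and 5.92 in the controls. The knockout pools lay lower by little (difference −0.08, SE 0.10, adjusted p = 0.940). Cxcr4 had 6.42 and 6.05 against 6.39 and 6.22, with replicate 2 lower in both genotypes and overlapping pools (difference −0.07, SE 0.15, adjusted p = 0.976). Cxcl14 had 6.65 and 6.40 against 6.49 and 6.66 (difference −0.05, SE 0.13, adjusted p = 0.980). Cxcl17, a mucosal chemokine, had 6.37 and 6.50 against 6.41 and 6.32 (difference 0.07, SE 0.10, adjusted p = 0.956). The pools of Cxcl14 and Cxcl17 overlapped.

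Cxcl16, a membrane-bound chemokine that also takes up oxidised lipid, had 5.91 and 5.79 against 5.65 and 5.88, with overlapping pools (difference 0.08, SE 0.12, adjusted p = 0.955). Its receptor Cxcr6 had 7.43 and 7.39 against 7.37 and 7.31, higher in both knockout pools by little (difference 0.07, SE 0.10, adjusted p = 0.956). In the annotation Cxcr6 overlaps Fyco1, an autophagy gene that differed by 0.01, and how far the Cxcr6 probes read Fyco1 transcripts was not tested. In all, 14 of the 49 genes overlap another annotated gene. Xcl1, the C chemokine lymphotactin, had 5.77 and 5.88 against 5.90 and 5.77, with overlapping pools (difference −0.01, SE 0.11, adjusted p = 0.996).

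The other 15 genes were dim, with overlapping pools, single log2 signals from 3.29 to 5.66 and differences from −0.15 to 0.13 (median 0.04, 11 of 15 above 0). The 7 ligands were Ccl1, Ccl3, Ccl6, Ccl20, Cxcl2, Cxcl3 and Cxcl11. The 8 receptors were Ccr1, Ccr1l1, Ccr3, Ccr4, Ccr6, Cxcr2, Cxcr3 and Xcr1. Their smallest limma adjusted p was 0.944.

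**Figure D4:**
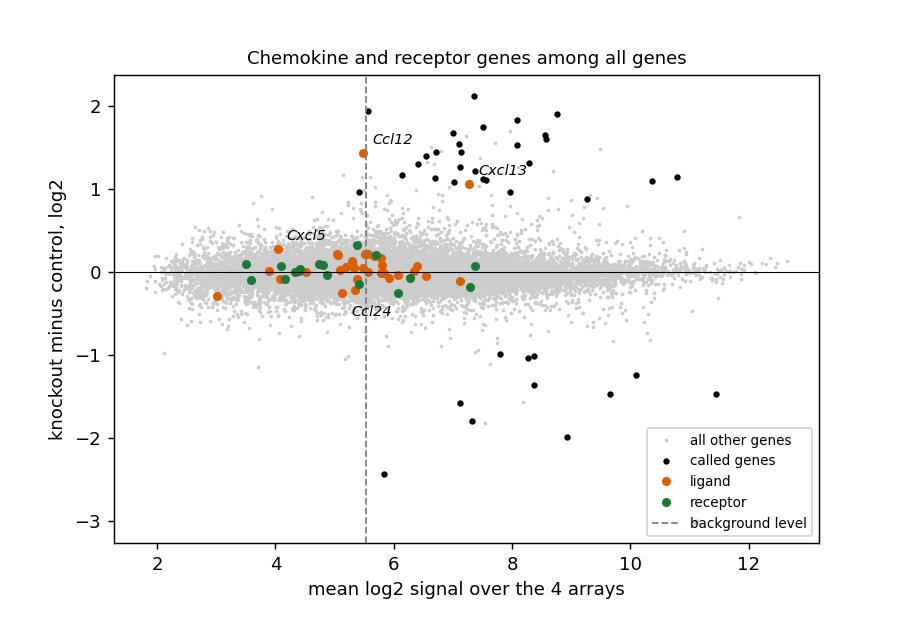
Knockout minus control (vertical axis, log2) against the mean log2 signal over the 4 arrays (horizontal axis) for all 19421 genes in grey, with the 39 called genes in black, the 32 ligands in orange, the 17 receptors in green and the background level as a dashed line. The ligands and receptors lie near 0 apart from Ccl12 (1.43) and Cxcl13 (1.06).

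Of 16 measured chemokines and attractant receptors outside the naming rule, 0 were called by limma and 11 lay above 0 (median 0.03). At an unadjusted p under 0.05 there were 2, both higher (beside 7.07% of all genes). Both are receptors of myeloid cells. C3ar1, the receptor of the complement fragment C3a, had 6.51 and 6.54 against 6.05 and 6.04 (difference 0.48, SE 0.10, adjusted p = 0.271). Cx3cr1, the fractalkine receptor of microglia, had 6.91 and 6.61 against 6.19 and 6.32 (difference 0.50, SE 0.13, adjusted p = 0.469). In both, the knockout pools stood clear of the controls. The ligand Cx3cl1 had 6.34 and 6.32 against 6.24 and 6.29 (difference 0.07, SE 0.10, adjusted p = 0.95). Ackr3, a scavenger receptor for Cxcl12, differed by 0.00 (SE 0.10), and the platelet chemokine Pf4 by −0.09 (SE 0.10).

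Of 20 measured inducers of chemokine genes, 3 were called by limma, all higher (beside 0.201% of all genes). The list was chosen with earlier results of these data known, so its share of called genes is not a test of the list. At an unadjusted p under 0.05 there were 5, 4 higher and 1 lower (beside 7.07%), and 14 of the 20 lay above 0 and 6 below (median difference 0.07). Cebpd, which encodes the inflammation-induced factor C/EBPδ, rose by 1.40 (SE 0.15, limma adjusted p = 0.0402). Osmr, the oncostatin M receptor, rose by 1.3 (SE 0.12, limma adjusted p = 0.0294). Stat3, the transcription factor that oncostatin M and related cytokines activate, rose by 1.08 (SE 0.10, limma adjusted p = 0.0271). The lower gene was Tnfaip3, an inhibitor of NF-κB signalling named here after its values were seen, at 7.14 and 7.16 against 7.75 and 7.95, with both knockout pools below both controls (difference −0.70, SE 0.11, adjusted p = 0.157). Of 18 signalling genes below the receptors, 0 were called by limma and 0 had an unadjusted p under 0.05 (median 0.05). Of 15 genes that process or present chemokines, 1 was called (beside 0.201% of all genes). It was the protease gene Ctss, which rose by 1.53 (SE 0.15, limma adjusted p = 0.0327). In this list 2 had an unadjusted p under 0.05 (beside 7.07% of all genes), both higher, and 8 lay above 0 and 7 below (median 0.00). Of 13 genes of leukocyte adhesion to vessels, 0 were called by limma and 3 had an unadjusted p under 0.05 (beside 7.07% of all genes), all higher. Of the 13, 7 lay above 0 and 6 below (median 0.005). Both knockout pools stood above both controls in 4 (beside 17.0% of all genes) and below them in 4 (beside 18.4%). Vcam1, an endothelial adhesion molecule, differed by 0.50 (SE 0.10, adjusted p = 0.260).

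Most microglial markers had a higher signal in the knockout, as Ccl12 and Cxcl13 did. Of 11 measured, 9 lay above 0 (median 0.34), 8 were above background and 1 was called (beside 0.201% of all genes). At an unadjusted p under 0.05 there were 7 (beside 7.07% of all genes), 6 higher (beside 3.71%) and 1 lower (beside 3.37%). The called gene was Tyrobp, a signalling adaptor of myeloid cells, which rose by 1.12 (SE 0.11, limma adjusted p = 0.0347). The lower one was Tmem119, a marker of resident microglia named here after its values were seen, at 5.44 and 5.50 against 5.86 and 5.88 (difference −0.40, SE 0.10, adjusted p = 0.403). The summed linear signal of the 11 was 893 to 933 in the knockout and 626 to 660 in the control, and without Tyrobp it was 641 to 646 and 504 to 535. Of 7 measured genes of activated microglia and macrophages, 4 lay above 0 and 3 below (median 0.19). In that list 0 were called by limma and 1 had an unadjusted p under 0.05, higher in the knockout (beside 7.07% of all genes). Astrocyte and reactive glia genes summed to 527 to 559 in the knockout and 375 to 387 in the control, and without Serpina3n to 361 to 392 and 299 to 341. Of these genes 6 of 6 lay above 0, 0 were called by limma and 3 had an unadjusted p under 0.05 (beside 7.07%). Blood monocyte markers, 5 of 6 of them dim, summed to 261 to 277 and 238 to 239, but without Itga4 to 140 to 142 and 140 to 146. Of the 6, 3 lay above 0 and 3 below, and 0 were called by limma. An unadjusted p under 0.05 was found in 2 (beside 7.07% of all genes), Itga4 higher (0.41, adjusted p = 0.504) and Chil3 lower (−0.40, adjusted p = 0.622). Of 8 neutrophil markers 6 were dim, of 8 T and NK cell markers all 8, and of 4 B cell markers 2. The B cell sums were 117 to 141 in the knockout and 118 to 141 in the control. The part of these cells in the differences of Ccl12 and Cxcl13 was not tested.

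**Figure D5:**
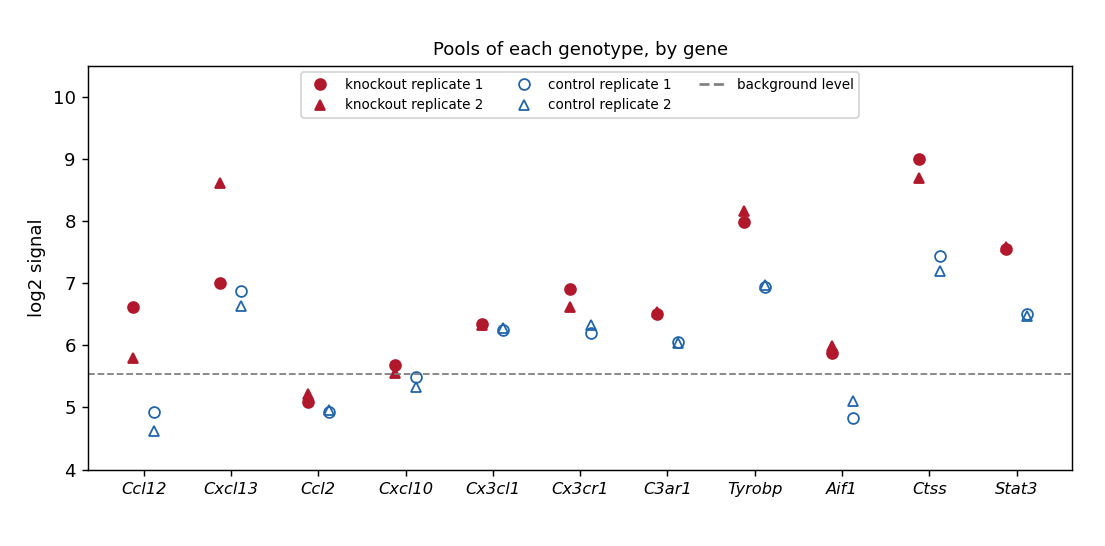
Log2 signal (vertical axis) on each of the 4 arrays for 11 genes, with circles for replicate 1, triangles for replicate 2, filled red for knockout, open blue for control and a dashed line at the background level of 5.54; the microglial gene Aif1 was added after its values were seen. The replicates of Tyrobp, C3ar1 and Stat3 lie close together, while the knockout pools of Ccl12 (6.62 and 5.79) and Cxcl13 (7.01 and 8.60) lie far apart.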

How the data were processed

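RNA of 4 retina pools was amplified and hybridised to 1-colour Affymetrix arrays. Values of 21897 probe sets were used as the authors deposited them, on a log2 scale. According to the submitters' processing notes the tools included affy and limma. How background was corrected and arrays normalized is not given here by any source used. The scale was read from the range of the values. GEO's platform annotation named the probe sets (20877 with 1 symbol, 175 with several, 845 with none), and the brightest stood for a gene, which left 19421 genes. All 49 members matched RefSeq's GRCm38.p6 table by gene ID.

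Groups came from the sample titles. The test was limma's (version 3.58.1, R 4.3.3, genotype only, no filter, Benjamini-Hochberg over all genes). The script was run on simulated data with independent noise and no sex effect, to check that the mean fitted difference lay near the one put in. That run does not show how the test behaves on these arrays. With 2 arrays per group an exact permutation test cannot go below 1 in 3. The limma p-values rest on the spread between pools of different animals, which within each genotype also differ in sex. The main fit has no term for sex, so sex differences are part of that spread. The number of arrays limits the precision. Alternatives were a replicate block, quantile normalization, 2 filters on dim genes, a variance trend, another background level, the mean of a gene's probe sets and leaving out each array.

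The members, lists and tests were chosen with earlier results of these data known. By rule, values are given in full for genes above background, those with an unadjusted p under 0.05 and the 3 dim genes with the largest difference. For the other lists the rule was up to 4 called genes, or those with the smallest p, besides Nrl, Cx3cl1, Cx3cr1, Ackr3 and Pf4. Not every uncalled gene that this rule picks is printed. Ccl2, Ccl8, Ccl11, Ccl22, Ccl28, Ccr2, Ccr8, Cxcl9, Cxcl10, Cxcr5, the TATAAA motif and the marker sums without 1 gene were added after values were seen.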

Additional observations from a re-analysis of the deposited data

How the results depend on the processing

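No chemokine or receptor gene was called under any alternative. With all 4 arrays, the smallest limma adjusted p among the 34 genes whose differences are given was 0.0697, for Ccl12 with a variance trend. Leaving out 1 array leaves 1 genotype with a single pool of 1 sex, so those fits also unbalance sex. Over all genes the number called, 39, was 8 with the replicate block, 89 when genes below the 50th percentile of signal were removed, 75 without genes at or below the background level, 128 with a variance trend, and 0 to 11 when 1 array was left out. Of the 49 genes, 0 had an unadjusted p under 0.05 under either filter, which removes the 4 dim genes concerned, 2 with a variance trend, and 2 to 5 when 1 array was left out. Their median difference was −0.045 over the 10 genes above the 50th percentile, and 10 of them count as above background when the median of all genes is the level. The labels do not say that the replicate number is shared between genotypes. By Xist signal it follows the pools' sex in both genotypes, so the replicate block also takes up sex. The deviations of the replicate 1 pools from their group means correlated at r = 0.24 across 19421 genes, which are not independent replicates. The part of sex in this correlation was not tested. With the replicate block the limma adjusted p was 0.124 for Ccl12 and 0.618 for Cxcl13. Ccl12 ran from 1.02 to 1.85 (limma adjusted p from 0.0697 to 0.705) and Cxcl13 from 0.26 to 1.85. Of 301 refitted differences 277 kept their direction and 24 turned, none of them called. These were Ccl25 with the mean of its probe sets (0.077), and 23 when 1 array was left out, where the ranges were −0.037 to 0.41 for Ccl17, −0.26 to 0.042 for Ccl25, −0.036 to 0.036 for Ccl26, −0.10 to 0.018 for Ccl4, −0.063 to 0.089 for Ccl5, −0.052 to 0.077 for Ccl8, −0.20 to 0.17 for Cxcl1, −0.17 to 0.074 for Cxcl14, −0.031 to 0.20 for Cxcl16, −0.073 to 0.053 for Xcl1, −0.39 to 0.20 for Ccr2, −0.38 to 0.016 for Ccr7, −0.033 to 0.44 for Ccr9, −0.26 to 0.12 for Cxcr4 and −0.20 to 0.20 for Cxcr5. The causes were not tested. Signal near background limits the 30 dim genes.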
